A study of Homo sapiens with 24 samples.

Results

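The 8 keratin genes KRT8, KRT18, KRT19, KRT7, KRT80, KRT15, KRT81 and KRT13 were followed through RNA-seq of T-47D cells, a long-established human breast cancer line of luminal type that expresses the estrogen receptor (ER). They were chosen by gene symbol from the 26364 genes of the count tables, and each symbol matched 1 row in every table. The cells carried a wild-type (WT) ESR1 gene or were heterozygous for the Y537S or D538G mutation at the endogenous ESR1 locus. There were 2 clones of each of the 3 genotypes, and what belongs to a genotype and what belongs to its 2 clones cannot be told apart. All cells were kept in hormone-deprived medium and transfected at 10 nM for 24 h. WT cells received a mimic negative control or a mimic of miR-331-3p, miR-181c-5p or miR-301b-3p. Y537S cells received the same control, the miR-301b-3p or miR-331-3p mimic, an inhibitor of let-7f-5p or the inhibitor negative control. D538G cells received the mimic control or a mimic of miR-181c-5p or miR-301b-3p. Mimics are synthetic duplexes that supply extra microRNA (miRNA), and inhibitors are synthetic strands that bind a miRNA and keep it from its targets. Each of the 12 conditions had 1 library from each clone, which gave 24 libraries.

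Keratins build the intermediate filaments of epithelial cells. A filament needs a type I and a type II keratin, which pair with each other, and the free partner is usually unstable. KRT8 and KRT7 are type II and KRT18 and KRT19 type I keratins of simple epithelia, and together they are the filaments that pathologists use to recognise luminal breast cells. KRT80 is a type II keratin found near the margins of epithelial cells. KRT15 and KRT13 are type I keratins of stratified epithelia, KRT15 in the basal layer and KRT13 in the layers above it. KRT81 is a type II keratin of hair. Filaments are tied to cell junctions by plakins and by proteins of the desmosome.

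The 4 miRNAs have different seeds, the bases 2 to 8 that pair with a target. Their mature sequences, from RefSeq and with the seed in capitals, are shown because no member carries a match to any of them in its 3′UTR.
miR-301b-3p: cAGUGCAAugauauugucaaagc
miR-331-3p: gCCCCUGGgccuauccuagaa
miR-181c-5p: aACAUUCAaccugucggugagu
let-7f-5p: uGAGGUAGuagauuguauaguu
The 3′UTR of the canonical transcript was searched for the 7 bases complementary to each seed, on the transcript's own strand, and 0 of the 8 members held one. Over the 18635 genes with an annotated 3′UTR, a match was held by 14.3% for miR-301b-3p, 14.1% for miR-331-3p, 19.5% for miR-181c-5p and 9.87% for let-7f-5p. The 3′UTRs of the members are short, from 64 bases in KRT18 to 342 in KRT81, except the 2402 bases of KRT80. A search of the whole transcript, added after the 3′UTRs had given no match, found 3 matches, each in coding sequence. They are printed with 9 bases on either side and the match in capitals. In the last, the exon junction lies in the bases printed after the match. The match itself (chr12:52680577-52680583, minus strand) lies within an exon.
KRT15, match to the miR-331-3p seed, chr17:39671864-39671888, minus strand: gcagcagatCCAGGGGctcattggt
KRT81, match to the let-7f-5p seed, chr12:52682211-52682235, minus strand: ggactgcgcCTACCTCcgcaagtca
KRT81, match to the miR-181c-5p seed, across an exon junction: ttggggctgTGAATGTctgtgtcag
Positions are on GRCh37, the sequence release that hg19 corresponds to. Over the 22008 transcripts scanned, 27.6% held a match for miR-331-3p, 20.5% for let-7f-5p and 26.9% for miR-181c-5p, so these are common events and are given as descriptions only. KRT15, whose coding sequence holds the miR-331-3p match, was the member that fell after that mimic in Y537S cells, as described further on. In WT cells given the same mimic it changed by 0.13 on the log2 scale (edgeR adjusted p = 0.602). Whether the match has a part in the fall in Y537S cells was not tested.

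The members lie in the 2 keratin clusters of the genome. KRT8 (chr12:53290971-53343738, minus strand) and KRT18 (chr12:53342655-53346690, plus strand) are neighbours whose annotated ends overlap on opposite strands. The type II genes KRT80 (chr12:52562780-52585798, minus strand), KRT7 (chr12:52626304-52645970, plus strand) and KRT81 (chr12:52679697-52685318, minus strand) lie on the same chromosome. The type I genes KRT13 (chr17:39657233-39661957), KRT15 (chr17:39669997-39678781) and KRT19 (chr17:39679869-39684560) follow each other on the minus strand of chromosome 17. KRT7 and KRT81 each overlap KRT86 on the annotation used here, and KRT81 and KRT86 are also similar in sequence. The strand setting of the counting is not given in the sources used here, so reads of KRT8 and KRT18 in the overlap, and of KRT81 and KRT86, could have been assigned to the other gene. The members' transcripts are rich in G and C, from 56.4% in KRT15 to 62.3% in KRT81, and their GC content lies between the 74.6th and the 91.1st percentile of all genes.

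Libraries held 31379962 to 50526442 counts (median 39878595). Between the 2 libraries of a condition the variance, averaged over genes, was 11.2 to 48.3 times that of counting noise (chi-square per degree of freedom). The 8 luminal markers fixed for this comparison, ESR1, PGR, GATA3, FOXA1, SPDEF, XBP1, CDH1 and EPCAM, each had a median over 1 CPM (TMM-scaled counts relative to library size), and their sum was 6083 to 6575 CPM in WT, 5511 to 6652 in Y537S and 4920 to 5421 in D538G cells. Of 7 basal or myoepithelial markers 2 had a median over 1 CPM, MYH11 at 3.79 and ACTA2 at 3.74. The other medians were 0.754 for TP63, 0.214 for KRT17, 0.0497 for KRT5, 0.0124 for KRT14 and 0 for CNN1, and TP63 reached 8.15 CPM. The sum of the 7 was 13.1 to 16.4 CPM in WT, 6.56 to 11.0 in Y537S and 6.34 to 8.28 in D538G cells. Of 7 fibroblast markers 2 had a median over 1 CPM, COL1A1 at 61.7 and LUM at 1.03, while COL1A2 and PDGFRB had a median of 0, and the sums overlapped between genotypes (49.3 to 84.1 CPM). In bulk RNA, fewer cells expressing a keratin and less of its RNA per cell cannot be told apart.

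The simple epithelial keratins were among the most abundant transcripts. By mean CPM per kilobase of transcript over the 24 libraries, KRT19 held rank 2, KRT8 rank 5, KRT18 rank 29, KRT7 rank 458 and KRT80 rank 958 of 22008 genes, and the members together held 0.639% to 1.02% of all counts. KRT8 ran from 2219 to 5054 CPM (median 2687), KRT19 from 1964 to 3647 (median 2573) and KRT18 from 1020 to 2160 (median 1211). KRT80 ran from 158.6 to 461.7 CPM (median 286.9) and KRT7 from 137.4 to 265.3 (median 208.2). KRT15 was low, at 3.57 to 22.6 CPM (median 12.7). KRT81, at 0.119 to 2.92 CPM, and KRT13, at 0 to 0.678 CPM with 4 libraries at 0, were near the limit of detection, since their whole evidence was 4 to 115 and 0 to 34 counts a library. A count of 0 allows up to 3 counts, and these limits cover counting error only.

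Compared per kilobase of transcript in WT cells with the mimic control, the order was KRT19 (2005 ± 224 CPM per kilobase, SD, n = 2 here and below), KRT8 (1265 ± 29.9), KRT18 (748.6 ± 38.2), KRT7 (124.8 ± 4.94), KRT80 (79.3 ± 5.51), KRT15 (9.43 ± 2.47), KRT81 (1.05 ± 0.186) and KRT13 (0.0395 ± 0.0559). In this order the ranges of the 2 clones did not overlap between any neighbours. In Y537S cells with the same control KRT8 (1603 ± 118) and KRT19 (1594 ± 3.76) were not separated by their spread, and KRT81 (0.253 ± 0.263) and KRT13 (0.258 ± 0.190) were not either. KRT7 (87.0 ± 3.44) and KRT80 (63.5 ± 1.69) kept their places below KRT18 (857.2 ± 44.5).

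**Figure D1:**
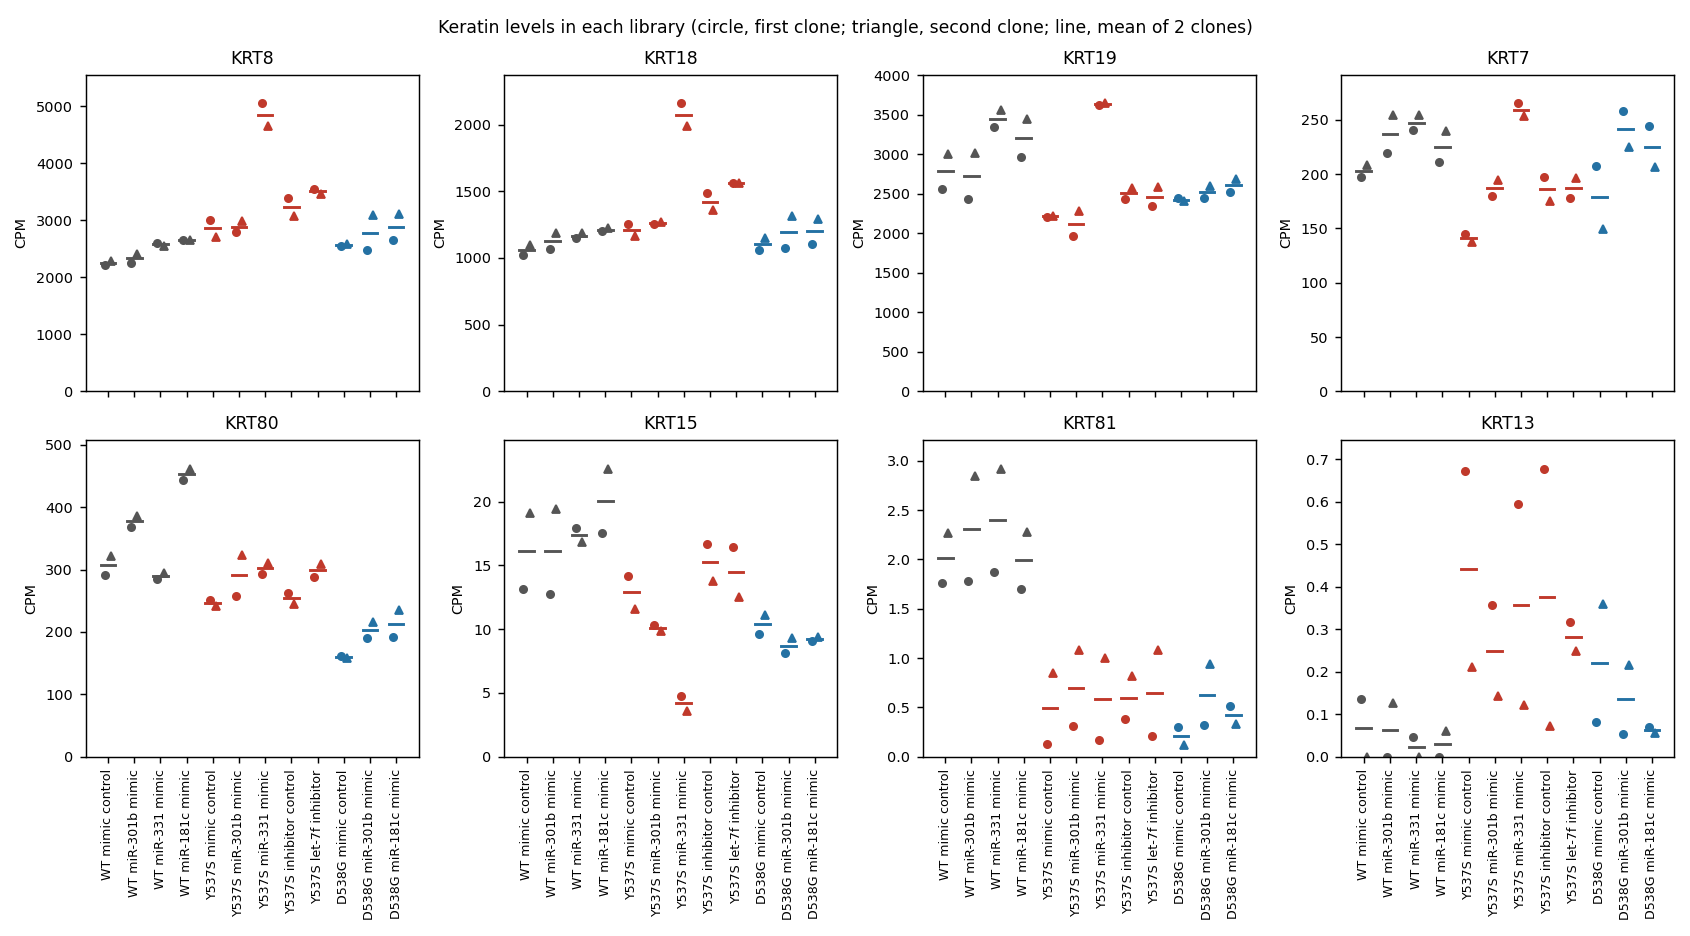
Level of each keratin in CPM (linear axis from 0, a separate scale for each gene) in the 12 conditions, with 1 point for each library (circle and triangle for the 2 clones of a genotype), a line at their mean, and grey for WT, red for Y537S and blue for D538G cells. KRT8 and KRT18 stand highest and KRT15 lowest in Y537S cells given the miR-331 mimic, and KRT81 is at or above 1.70 CPM in every WT library and at or below 1.09 CPM in every mutant library.

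KRT8 and KRT18, partners in simple epithelia, kept a nearly fixed ratio of CPM, here not corrected for length. KRT8 CPM was 2.03 to 2.42 times KRT18 CPM over all 24 libraries, while either gene alone varied by over 2-fold (2.28-fold for KRT8 and 2.12-fold for KRT18 between lowest and highest library). The ratio was 2.03 to 2.26 in WT, 2.22 to 2.40 in Y537S and 2.26 to 2.42 in D538G libraries. KRT19 did not keep step. The ratio of KRT19 to KRT18 CPM was 2.28 to 3.01 in WT, 1.98 to 2.31 in D538G and 1.50 to 1.90 in Y537S libraries. The Y537S libraries lay below those of the other genotypes in every condition, the miR-331 mimic included. The summed type I members over the summed type II members, both per kilobase, gave 1.68 to 2.05 in WT, 1.45 to 1.61 in D538G and 1.29 to 1.49 in Y537S libraries. Libraries of 1 clone share their cells, so the 8, 6 and 10 libraries of these ranges stand for 2 clones each and no test was made over them.

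**Figure D2:**
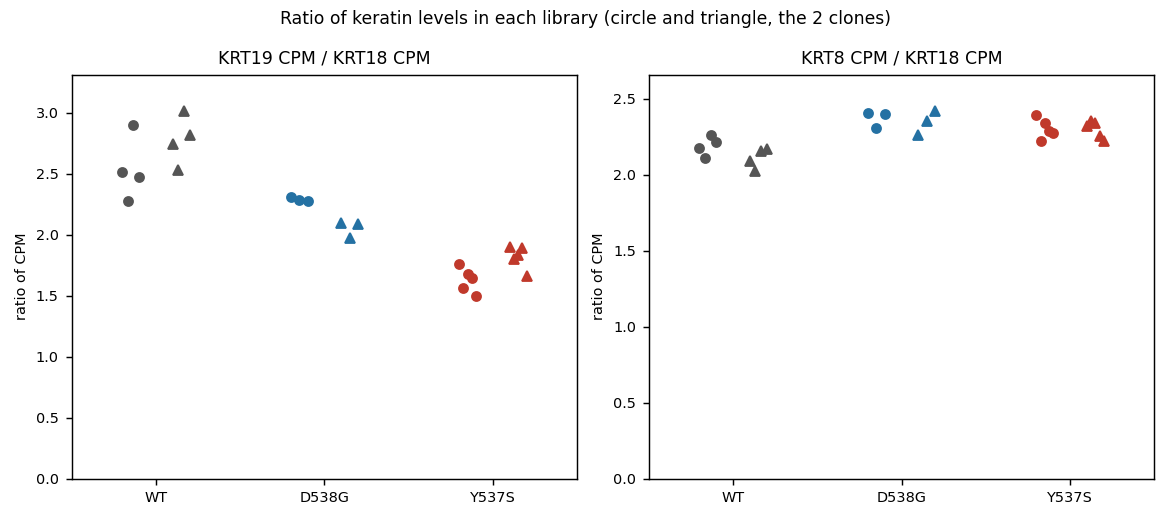
Ratio of KRT19 CPM to KRT18 CPM (left) and of KRT8 CPM to KRT18 CPM (right) in each library, with circles and triangles for the 2 clones of a genotype and both axes starting at 0. KRT8 stays at 2.03 to 2.42 times KRT18 in all 24 libraries, whereas KRT19 over KRT18 runs from 1.50 to 1.90 in Y537S and from 2.28 to 3.01 in WT libraries.

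Levels were compared between genotypes in cells given the mimic control. Log2 fold changes are from edgeR's quasi-likelihood F test, and a gene was called at a Benjamini-Hochberg adjusted p under 0.05 over all genes tested. In Y537S against WT cells 4 of 7 members tested were called, against 29.0% of all genes tested. KRT8 was higher and KRT19, KRT7 and KRT80 were lower, and KRT13 did not pass the filter on low counts. KRT8 was at 3009 and 2712 CPM in the Y537S clones and at 2219 and 2294 CPM in the WT clones, with no overlap. This was a log2 fold change of 0.36 ± 0.09 (SE; edgeR adjusted p = 0.0191). KRT7 was at 145.3 and 137.4 CPM in Y537S and at 197.1 and 208.4 in WT clones, a change of -0.50 ± 0.08 (adjusted p = 0.00323). KRT19 had a log2 fold change of -0.32 ± 0.10 (adjusted p = 0.0451) and KRT80 of -0.30 ± 0.08 (adjusted p = 0.0273), while KRT18 (0.21 ± 0.08, adjusted p = 0.0928) was not called, and the clones of these 3 genes did not overlap between the genotypes either. The counts rested on both WT control libraries. Over all genes tested too, fewer were called without 1 of these and more without clone 2 of the Y537S control. Without clone D1 or without clone D4 of the WT control, KRT7 was the member still called, with KRT8 at adjusted p = 0.178 and 0.124, KRT19 at -0.43 and -0.20 (adjusted p = 0.0735 and 0.358) and KRT80 at adjusted p = 0.0864 and 0.243, and without clone 2 of the Y537S control 7 members were called.

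In D538G against WT cells 5 of 7 members tested were called, against 38.9% of all genes tested. KRT80 was 1.94-fold lower, at 160.7 and 158.6 CPM in the D538G clones A5 and C2 and at 291.9 and 322.1 in the WT clones (log2 fold change -0.96 ± 0.07, adjusted p = 2.46e-05). KRT81 was 9.39-fold lower, with 11 and 4 counts in the D538G libraries against 65 and 76 in the WT libraries (-3.23 ± 0.52, adjusted p = 0.00116). The D538G level of this hair keratin thus rests on 15 counts in all. KRT15 was at 9.61 and 11.1 CPM against 13.2 and 19.1 (-0.65 ± 0.19, adjusted p = 0.0246), KRT19 was lower (-0.21 ± 0.07, adjusted p = 0.0497) and KRT8 slightly higher (0.18 ± 0.05, adjusted p = 0.0326). The last 3 were sensitive to single libraries. Without WT control clone D4, KRT15 was at -0.36 (adjusted p = 0.211), KRT19 at -0.10 (adjusted p = 0.302) and KRT8 at 0.19 (adjusted p = 0.0561), and further calls were lost for KRT15 without D538G clone A5 (-0.54, adjusted p = 0.0578), for KRT19 without clone A5 or C2 (-0.22 and -0.20, adjusted p = 0.0515 and 0.0893) and for KRT8 without WT clone D1 or D538G clone C2 (0.14 and 0.17, adjusted p = 0.163 and 0.0744). Without WT control clone D1, KRT19 was at -0.33 and remained called. KRT80 and KRT81 were called with each library left out in turn, although the KRT81 change was -4.04 without D538G clone A5 and -2.73 without clone C2. The summed luminal markers were lower in every D538G library than in any WT library, and their part in these keratin differences was not tested.

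KRT81 was also lower in both Y537S clones, but unequally. Clone 1 held 0.129 and clone 2 held 0.847 CPM with the mimic control, against 1.76 and 2.27 in WT clones, and the fitted change of -2.00 ± 0.72 was not called (edgeR adjusted p = 0.0746, DESeq2 adjusted p = 0.0300). The difference between the Y537S clones was present in all 5 conditions, at 0.129 to 0.379 CPM in clone 1 and 0.818 to 1.09 in clone 2. KRT13 showed the opposite order, at 0.316 to 0.678 CPM in clone 1 and 0.0722 to 0.248 in clone 2. Y537S and D538G cells differed in 1 of 8 members, against 6.19% of all genes tested. KRT80 was 1.56-fold higher in Y537S cells (245.8 ± 6.55 against 159.6 ± 1.51 CPM, log2 fold change 0.65 ± 0.08, edgeR adjusted p = 0.00755), and this call was lost without D538G clone A5 (0.66, adjusted p = 0.0563). The genotypes were thus ordered WT, Y537S, D538G for KRT80 with no overlap between clones at any step.

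The Y537S-to-WT differences in KRT19, KRT7 and KRT80 were not seen when both genotypes had received the miR-331 mimic. KRT7 was then at 265.3 and 253.4 CPM in Y537S and at 240.4 and 254.6 CPM in WT clones (log2 fold change 0.05, edgeR adjusted p = 0.635). KRT19 was at 3629 and 3647 CPM against 3342 and 3566 (0.06, adjusted p = 0.596), and KRT80 differed by 0.04 (adjusted p = 0.717). KRT8 differed more than with the control, by 0.89 (adjusted p = 0.000682).

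The strongest response of the keratins was to the miR-331-3p mimic in Y537S cells, where 6 of 8 members were called, against 33.0% of all genes tested. KRT8, KRT18, KRT19, KRT7 and KRT80 rose and KRT15 fell. KRT8 went from 3009 to 5054 CPM in clone 1 and from 2712 to 4656 CPM in clone 2, a 1.72-fold rise (log2 fold change 0.78 ± 0.08, edgeR adjusted p = 0.00618). Its partner KRT18 went from 1256 to 2160 and from 1167 to 1988 CPM (0.79 ± 0.08, adjusted p = 0.00618). KRT19 went from 2212 to 3629 and from 2219 to 3647 CPM (0.73 ± 0.07, adjusted p = 0.00617). These 3 rose by nearly the same factor, 1.66- to 1.73-fold, and the mimic and control libraries were far apart in both clones. KRT7 rose 1.86-fold, from 145.3 to 265.3 and from 137.4 to 253.4 CPM (0.89 ± 0.09, adjusted p = 0.00618). KRT80 rose less, from 250.4 to 293.6 and from 241.1 to 310.0 CPM (0.31 ± 0.09, adjusted p = 0.0404).

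KRT15 moved the other way. It fell from 14.2 to 4.78 CPM in clone 1 and from 11.6 to 3.57 CPM in clone 2, which is from 550 and 492 counts to 193 and 147 counts. The change was 3.05-fold (log2 fold change -1.61 ± 0.23, edgeR adjusted p = 0.00822), and the 2 libraries with the mimic held less KRT15 than any of the other 22. For KRT81 (0.26 ± 1.11) and KRT13 (-0.28 ± 0.95) a change of that size was not detectable at this depth. With any 1 of the 4 libraries left out, KRT80 was no longer called (0.30 to 0.37, adjusted p = 0.0664 to 0.252), while the other 5 members were called each time. The blocked fit, with the clone as a block, called the same 6 members, against 60.7% of all genes.

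Transcripts as rich in GC as the keratins had higher medians after the mimics too. Genes in the members' GC range, 56.4% to 62.3%, had a median log2 fold change of 0.41 in Y537S cells and 0.26 in WT cells given the miR-331 mimic, and of 0.20 to 0.22 after the 5 other mimic treatments, against -0.12 to -0.07 for genes of lower GC content. After the let-7f inhibitor the median was 0.04, and between genotypes with the mimic control it was -0.06 to 0.05. With a correction that removes the trend on GC content from each library, the rises in Y537S cells after the miR-331 mimic were 0.47 for KRT8, 0.51 for KRT18, 0.37 for KRT19 and 0.53 for KRT7 (adjusted p = 0.0156 to 0.0316), and these 4 were still called. KRT80 was at 0.06 (adjusted p = 0.647). KRT15 fell by 1.85 on the log2 scale (adjusted p = 0.0128). After every mimic the correction lowered the number called over all genes tested, in Y537S cells after miR-331 to 3066 of 14877. What gives rise to this trend was not tested.

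In WT cells the same mimic gave smaller rises. Of 7 members tested 4 were called, against 24.8% of all genes tested, all of them simple epithelial keratins. KRT19 went from 2567 to 3342 CPM in clone D1 and from 3008 to 3566 in clone D4 (log2 fold change 0.33 ± 0.07, edgeR adjusted p = 0.00634). KRT7 went from 197.1 to 240.4 and from 208.4 to 254.6 CPM (0.31 ± 0.06, adjusted p = 0.00428). KRT8 (0.22 ± 0.05, adjusted p = 0.00797) and KRT18 (0.17 ± 0.05, adjusted p = 0.0459) changed by less than the median of genes in their GC range. After the GC correction none of the 4 was called and their changes were between -0.03 and 0.01. Over all genes tested 1171 of 15140 were called with that correction. In the blocked fit 4 were called as well, against 37.0% of all genes. KRT80 (285.5 and 295.0 CPM against 291.9 and 322.1 with the control) and KRT15 (18.0 and 16.8 CPM against 13.2 and 19.1) were not called. KRT15 was higher with the mimic in clone D1 and lower in clone D4. Of the called members, KRT8 lost its call without miR-331 clone D1 (0.20, adjusted p = 0.0994), KRT18 lost it without control clone D1 (0.11, adjusted p = 0.223) or without either mimic library (0.18 and 0.15, adjusted p = 0.161 and 0.183), and KRT19 was at 0.22 without control clone D1 (adjusted p = 0.0191).

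**Figure D3:**
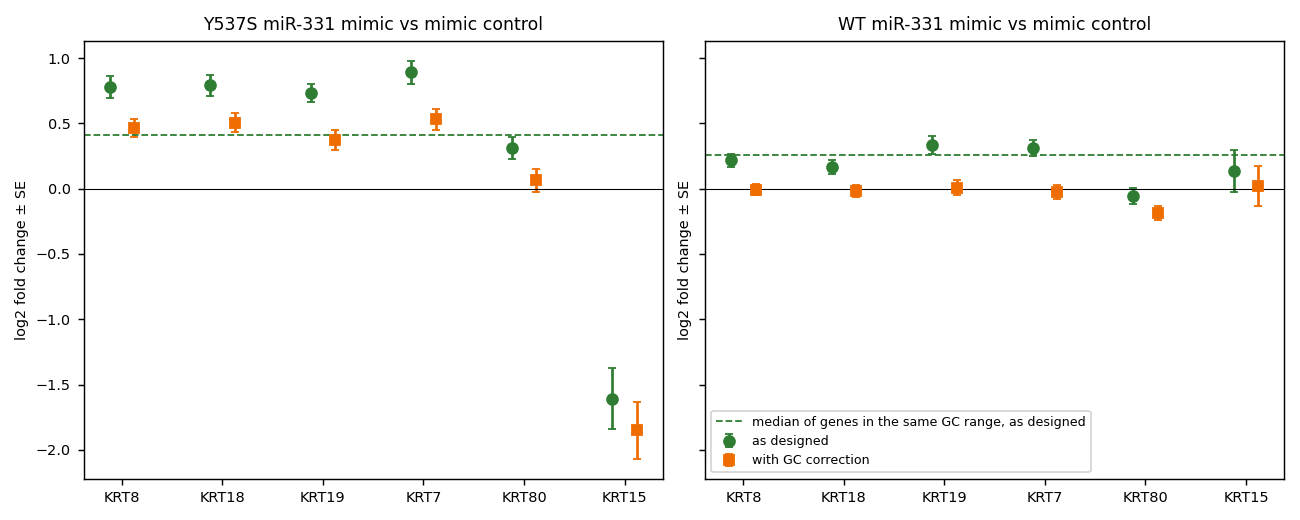
Log2 fold change ± SE (2 clones a condition) with the miR-331 mimic, in Y537S (left) and WT cells (right), as designed (green circles) and with the GC correction (orange squares), with a dashed line at the median of genes in the keratins' GC range. In Y537S cells KRT8, KRT18, KRT19 and KRT7 lie above the dashed line at 0.41 and stay above 0.37 with the correction, KRT15 lies at -1.61 and -1.85, and in WT cells the 4 simple keratins lie at 0.17 to 0.33 and at -0.03 to 0.01 with the correction.

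The difference of the response between Y537S and WT cells was tested in 1 model over the 8 libraries. Of 8 members 4 were called, against 9.94% of all genes tested. The response in Y537S cells was more positive for KRT18 by 0.61 (95% interval 0.37 to 0.85), for KRT7 by 0.56 (0.34 to 0.79) and for KRT8 by 0.55 (0.30 to 0.79) on the log2 scale, with edgeR adjusted p = 0.0124, 0.0134 and 0.0192. For KRT15 it was more negative, with a log2 difference of -1.76 (-2.45 to -1.06, adjusted p = 0.0127). KRT19 (0.38 ± 0.12, adjusted p = 0.0732) and KRT80 (0.35 ± 0.10, adjusted p = 0.0616) were not called. In the blocked fit all 6 were called, against 34.1% of all genes. With the GC correction the 4 differences were 0.51, 0.55, 0.46 and -1.88 and were called, as were 1220 of 15666 genes tested. The calls depended on the WT libraries, and with any of these left out fewer of all genes tested were called too. Without WT mimic clone D1 or D4, 0 members were called (adjusted p = 0.0524 to 0.0897), without WT control clone D4 1 was called, KRT15, and without WT control clone D1 3 were called, KRT8 being lost (0.56, adjusted p = 0.0666). The sizes moved little without either WT mimic library, to 0.53 to 0.57 for KRT8 and 0.59 to 0.63 for KRT18. They were then 0.53 to 0.61 for KRT7 and -1.80 to -1.71 for KRT15. With each of the 8 libraries left out in turn, KRT8 ran from 0.466 to 0.607 and KRT18 from 0.527 to 0.662. KRT7 ran from 0.509 to 0.606 and KRT15 from -2.065 to -1.519.

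KRT80, the keratin of cell margins, was called after the miR-181c mimic in both genotypes that received it. After the miR-181c-5p mimic in WT cells it went from 291.9 to 443.3 CPM in clone D1 and from 322.1 to 461.7 CPM in clone D4, a 1.46-fold rise (log2 fold change 0.55 ± 0.07, edgeR adjusted p = 0.00117). Both libraries were above every other library of the series. There 2 of 7 members tested were called, against 16.4% of all genes tested, the other being KRT8 (0.22 ± 0.06, adjusted p = 0.0310). KRT80 was still called with the GC correction (0.40, adjusted p = 0.00283), as were 1113 of 14968 genes, while KRT8 was not (0.02, adjusted p = 0.911). KRT8 also lost its call without any of control clone D1, control clone D4 or mimic clone D4 (0.20, 0.23 and 0.20, adjusted p = 0.221, 0.0898 and 0.0617). Blocking by clone added KRT18, KRT19 and KRT15 (0.18, 0.19 and 0.31, adjusted p = 0.0210, 0.0166 and 0.0414), making 5 members against 27.9% of all genes.

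In D538G cells the miR-181c-5p mimic raised KRT80 from 160.7 to 191.1 CPM in clone A5 and from 158.6 to 235.6 CPM in clone C2 (0.42 ± 0.10, edgeR adjusted p = 0.0262). It was the 1 of 7 members called, against 9.52% of all genes tested. The response was larger in clone C2, and without that clone's mimic library it was 0.27 (adjusted p = 0.176). With the clone as a block KRT7 (0.35, adjusted p = 4.13e-08) and KRT8 (0.17, adjusted p = 0.00237) were called as well, 3 members against 29.3% of all genes. With the GC correction and no block, KRT80 was at 0.30 (adjusted p = 0.190), and 204 of 14826 genes tested were called. With both, KRT80 was called (0.29, adjusted p = 4.84e-09) and KRT19 was called as lower (-0.16, adjusted p = 3.67e-07), against 2770 of 14826 genes tested.

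After the miR-301b-3p mimic KRT80 was the member called as designed, in D538G and WT cells, and KRT7 was called in the blocked fit. In D538G cells 1 of 7 members was called, against 11.8% of all genes tested, and in WT cells 1 of 7, against 8.50%, and in both it was KRT80. It went from 160.7 to 190.0 and from 158.6 to 215.8 CPM in the D538G clones (0.34 ± 0.09, edgeR adjusted p = 0.0343). In the WT clones it went from 291.9 to 368.9 and from 322.1 to 386.5 CPM (0.30 ± 0.08, adjusted p = 0.0479). In Y537S cells it went from 250.4 to 258.1 and from 241.1 to 323.0 CPM (0.22 ± 0.12, adjusted p = 0.349), and 0 of 8 members were called by edgeR, against 3.57% of all genes tested. In that comparison 3510 genes had an unadjusted p under 0.05, and DESeq2 called 1 member, KRT7. Single libraries decided the KRT80 calls. The D538G call was lost without control or mimic clone C2 (0.34 and 0.25, adjusted p = 0.0921 and 0.165), and the WT call without control clone D1, control clone D4 or mimic clone D4 (0.23, 0.37 and 0.27, adjusted p = 0.451, 0.119 and 0.0730). Both were also lost with the GC correction and no block (0.18 in D538G and 0.17 in WT cells, adjusted p = 0.325 and 0.158). With that correction 219 of 14845 genes tested were called in D538G and 709 of 15113 in WT cells.

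KRT7, the type II keratin that often accompanies KRT19, went from 145.3 to 180.3 and from 137.4 to 194.8 CPM in the Y537S clones after the miR-301b-3p mimic. It went from 208.0 to 258.5 and from 149.6 to 225.3 CPM in the D538G clones and from 197.1 to 220.0 and from 208.4 to 254.1 CPM in the WT clones. Every clone of the 3 genotypes was higher with the mimic than with its own control. As designed the changes were 0.38 ± 0.09, 0.43 ± 0.14 and 0.22 ± 0.09 and were not called (edgeR adjusted p = 0.0765, 0.0673 and 0.145). Blocked by clone they were called (adjusted p = 1.14e-08, 1.44e-10 and 0.0055). The block raised the number of members called to 3 in Y537S (KRT7, KRT80 and, downwards, KRT15 at -0.38 with adjusted p = 0.0168), 2 in D538G and 2 in WT cells (KRT7 and KRT80 in both), against 38.4%, 33.3% and 28.2% of all genes. When the GC correction was added to the block, KRT80 kept its call in D538G and WT cells (0.18 and 0.17, adjusted p = 0.00884 and 0.0133). KRT7 was then called in D538G cells (0.17, adjusted p = 0.0163) and was at -0.06 in WT cells. In Y537S cells both lost their call, with KRT7 at 0.11 (adjusted p = 0.0979) and KRT80 at 0.06 (adjusted p = 0.391). KRT8, KRT18 and KRT19 had log2 fold changes of -0.09 to 0.11 after this mimic in the 3 genotypes and were not called, with or without the block. Where the GC correction was added to the block, several of them were called as lower. Over all genes tested that fit called 4277 of 15145 in Y537S, 2592 of 14845 in D538G and 2278 of 15113 in WT cells. In Y537S cells the lower members were KRT8 (-0.22, adjusted p = 3.41e-06), KRT18 (-0.15, adjusted p = 0.00465) and KRT19 (-0.36, adjusted p = 3.14e-15). In D538G cells it was KRT19 (-0.22, adjusted p = 2.14e-05), and in WT cells KRT8 (-0.15, adjusted p = 0.000781) and KRT19 (-0.31, adjusted p = 4.33e-06).

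**Figure D4:**
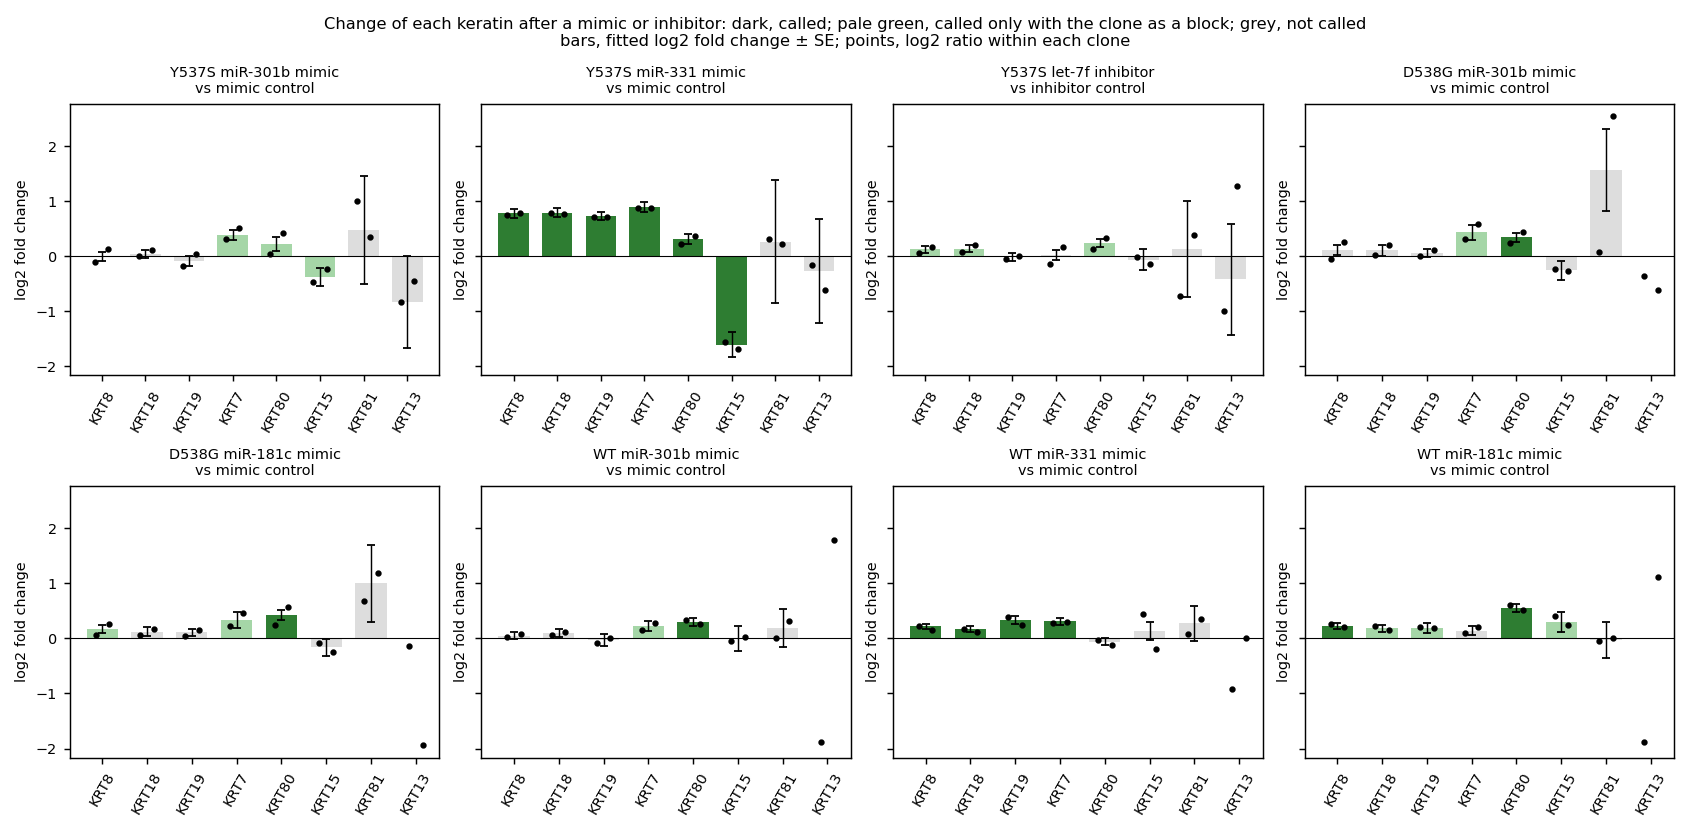
Log2 fold change of each keratin in the 8 treatment comparisons (bars, fitted value ± SE, and black points, the log2 ratio within each of the 2 clones), dark green where called, pale green where called with the clone as a block and not otherwise, and grey where not called, with points alone for KRT13 where it was not tested. The miR-331 mimic in Y537S cells gives 5 bars of 0.31 to 0.89 upwards and KRT15 at -1.61, and KRT80 is green in every panel except that of WT cells given the miR-331 mimic.

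The let-7f-5p inhibitor was compared with the inhibitor control in Y537S cells. With edgeR 0 of 8 members were called, against 0.00% of all genes tested, with 786 genes at an unadjusted p under 0.05, while DESeq2 called 79 genes and 0 of the members it tested. KRT80 went from 262.1 to 288.4 and from 245.5 to 309.0 CPM (0.24 ± 0.07, adjusted p = 0.858). KRT18 (0.14 ± 0.06) and KRT8 (0.12 ± 0.06) were also higher in both clones. With the clone as a block these 3 were called (adjusted p = 0.000228, 0.00359 and 0.00422), against 11.2% of all genes. With the GC correction added KRT80 was called (0.18, adjusted p = 6e-06) and the other 2 were not, against 1567 of 15140 genes tested. KRT19, KRT7 and KRT15 had log2 fold changes of -0.07 to 0.02.

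For the other mimics the response did not differ detectably between a mutant and WT cells. By edgeR 0 members were called for miR-301b in Y537S (against 0.00632% of all genes tested, with 343 genes at an unadjusted p under 0.05), 0 for miR-301b in D538G (0.00640%, with 478 genes) and 0 for miR-181c in D538G cells (0.00646%, with 453 genes). Each of these percentages is 1 gene, and DESeq2 called 1, 2 and 2 genes, 0 of them members. The intervals still leave room for differences. For KRT80 the response to miR-301b differed from that in WT cells by -0.07 (95% interval -0.40 to 0.27) in Y537S and 0.05 (-0.22 to 0.31) in D538G cells, and the response to miR-181c by -0.12 (-0.40 to 0.17) in D538G cells. For KRT7 the 3 differences were 0.17 (-0.10 to 0.45), 0.21 (-0.19 to 0.61) and 0.20 (-0.19 to 0.60). For KRT15 they were -0.36 (-1.10 to 0.38), -0.25 (-0.93 to 0.44) and -0.46 (-1.03 to 0.11).

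KRT81 and KRT13 gave few values that could be compared. After the miR-301b mimic KRT81 had 39 counts against 4 with the control in D538G clone C2, and 12 against 11 in clone A5, and its fitted change (1.56 ± 0.75, edgeR adjusted p = 0.201) was not called. KRT13 was tested in 3 of the 8 treatment comparisons, those in Y537S cells, and was not called. In WT libraries it had 0 to 5 counts.

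Other keratins and keratin partners were read from lists chosen with earlier results of these data known. Of 47 other keratin genes 4 had a median over 1 CPM, namely KRT23 (135.9 CPM), KRT10 (37.0), KRT86 (3.73) and KRT222 (1.59), so that 8 to 11 were tested in a treatment or genotype comparison. In Y537S against WT cells 2 of 9 tested were called, against 29.0% of all genes tested. Both fell, KRT86 (-1.58 ± 0.30, edgeR adjusted p = 0.0081) and KRT222 (-1.85 ± 0.35, adjusted p = 0.00823). In D538G against WT cells 8 were tested, and 38.9% of all genes tested were called. There KRT86 (-2.25 ± 0.29, adjusted p = 0.000388) and KRT222 (-1.56 ± 0.31, adjusted p = 0.00359) fell and KRT23, a type I keratin, rose (0.88 ± 0.09, adjusted p = 0.000111). KRT86, a hair keratin that overlaps KRT81, thus had the same direction as KRT81 in both mutants. The KRT81 change in Y537S cells was not called (-2.00 ± 0.72, adjusted p = 0.0746). Reads of KRT81 and KRT86 could have been assigned to the other gene, so their values may not be independent. In Y537S against D538G cells 1 of 9 fell, KRT23 (-1.25 ± 0.12, adjusted p = 0.00403), against 6.19% of all genes tested. In the 8 treatment comparisons 2 calls were made, KRT86 (0.69 ± 0.18, adjusted p = 0.0189) and KRT23 (0.29 ± 0.09, adjusted p = 0.0380) after the miR-331 mimic in WT cells. They were 2 of 9 tested, against 24.8% of all genes, and the shares for the other treatments are given with the members above. The blocked fit called 2 of 9 lower after miR-301b (against 38.4% of all genes) and 3 of 10 higher after miR-331 (60.7%) in Y537S cells. It called 1 of 11 higher after miR-301b in D538G cells (33.3%). In WT cells it called 1 of 10 lower after miR-301b (28.2%) and 2 of 9 higher after miR-331 (37.0%). It called 0 after the let-7f inhibitor (11.2%) and after miR-181c in D538G (29.3%) and WT cells (27.9%).

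Of 28 genes for keratin partners and other intermediate filaments, 18 to 20 were tested in these comparisons. Neither they nor the other keratins were read with the GC correction. With that correction 24 of 15145 genes tested were called after miR-301b in Y537S cells, against 541 without it. The part of the GC trend in the changes of either list was not tested. In Y537S cells given the miR-331 mimic 4 of 20 rose and 1 fell, a share below the 33.0% of all genes tested, with a median of 0.25 over the list and -0.01 over all genes tested. The plakophilin PKP3 (0.80 ± 0.09, edgeR adjusted p = 0.00638) and plakoglobin JUP (0.78 ± 0.13, adjusted p = 0.0102), both desmosome proteins, rose by about as much as KRT8. The plakin DST, a cytoskeletal linker, fell (-1.41 ± 0.14, adjusted p = 0.00618). In WT cells after this mimic 8 of 20 rose and 2 fell, against 24.8% of all genes, PKP3 by 0.64 ± 0.07 and PLEC, a plakin that binds keratin filaments, by 0.40 ± 0.06 upwards (adjusted p = 0.000178 and 0.000935) and DST by -0.44 ± 0.06 (adjusted p = 0.000562). DST was the 1 list gene whose response was called as different between the genotypes as designed (-0.98 ± 0.16, adjusted p = 0.00875), against 9.94% of all genes, while the blocked fit called 3 as more positive and 2 as more negative, against 34.1%. After the miR-301b mimic 2 of 20, 5 of 19 and 5 of 20 rose in Y537S, D538G and WT cells and 0 fell, against 3.57%, 11.8% and 8.50% of all genes, and PLEC was among them each time (0.51, 0.46 and 0.40, adjusted p = 0.0350, 0.00749 and 0.0179). After the miR-181c mimic 5 of 18 rose and 1 fell in D538G and 6 of 20 rose and 0 fell in WT cells, against 9.52% and 16.4% of all genes, with the plakin PPL at 0.38 and 0.53 (adjusted p = 0.0163 and 0.0111) and PKP3 at 0.43 and 0.45 (adjusted p = 0.0126 and 0.0128). After the let-7f inhibitor 0 of 20 were called by edgeR as designed, where 0 of all genes were, and 2 rose in the blocked fit, against 11.2% of all genes. For the mimics the block gave more calls in both directions. After miR-301b it gave 8 higher and 4 lower in Y537S, 7 and 2 in D538G, and 8 and 2 in WT cells, against 38.4%, 33.3% and 28.2% of all genes. After miR-331 it gave 8 higher and 3 lower in Y537S and 9 and 3 in WT cells, against 60.7% and 37.0%. After miR-181c it gave 8 higher and 2 lower in D538G and 9 and 1 in WT cells, against 29.3% and 27.9%.

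Between genotypes several partner genes changed by more than 2-fold, among them the B-type lamins LMNB1 and LMNB2, filaments of the nuclear envelope. LMNB1 was higher in Y537S (1.51 ± 0.10, edgeR adjusted p = 0.000137) and D538G cells (1.08 ± 0.09, adjusted p = 3.89e-05), and LMNB2 too (1.33 ± 0.13 and 1.25 ± 0.08, adjusted p = 0.000527 and 1.23e-05). NES, which encodes the intermediate filament nestin, was higher in Y537S than in WT (1.87 ± 0.49, adjusted p = 0.0267) and D538G cells (2.11 ± 0.48, adjusted p = 0.0498). AJUBA, a protein of cell junctions, was lower in D538G than in WT cells (-1.07 ± 0.11, adjusted p = 0.000124) and higher in Y537S than in D538G cells (1.30 ± 0.17, adjusted p = 0.00856), and the keratin-binding TCHP was higher in Y537S than in D538G cells (0.61 ± 0.14, adjusted p = 0.0486). In all 6 of 20 partner genes rose and 2 fell in Y537S against WT cells, against 29.0% of all genes tested. In D538G against WT cells 4 of 19 rose and 3 fell, near the 38.9% of all genes, and in Y537S against D538G cells 4 of 20 rose and 0 fell, against 6.19%.

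The pattern of each member over the 24 libraries was compared with that of every gene averaging 1 log2 CPM or more. The libraries share clones and controls, so Pearson's r is given as a description. The gene most like KRT8 was KRT18 (r = 0.975), followed by TSPAN17 (0.957), and for KRT18 they were KRT8 and RPLP0 (0.963). KRT19 was most like TRIM8 (0.932) and FAM46B (0.926), and KRT7 like RRNAD1 (0.920) and ACOT8 (0.920). KRT80 was most like ZNF385A (0.940) and ZFYVE1 (0.937), and KRT15 like SFSWAP (0.900) and YPEL4 (0.896). KRT81 was most like RDH16 (0.939) and BTBD11 (0.931), and KRT13 like ACOT9 (0.856) and MORC4 (0.850). KRT8 and KRT18 were the members whose nearest gene was another member.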

How the data were processed

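The authors made poly-A RNA-seq libraries from 2 clones of each ER genotype, mapped them with HISAT2 (build hg19) and assigned reads to genes of the UCSC Known Genes table with featureCounts of Subread. The files deposited hold the raw counts of this step, with no normalization. Versions, strand setting and the treatment of multiply mapped reads are not given in the sources used here. Column headings name clones, and only those of the Y537S table match the sample labels, so D538G and WT columns were assigned to conditions. Some labels transpose the digits of Y537S, and the titles were followed. The members and lists were chosen with earlier results of these data known.

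Each treatment was compared with its own control in the same genotype, genotypes with the mimic control, and mutant with WT responses, 15 comparisons in all. The test was edgeR 4.0.16 (R 4.3.3; TMM, filterByExpr, quasi-likelihood F test, two-sided, Benjamini-Hochberg adjusted p under 0.05 over all genes tested). The SE is the log2 fold change divided by the square root of F, and intervals use the test's t distribution. CPM use TMM factors over 24 libraries. Levels per kilobase use the canonical transcript of GENCODE release 44 lifted to GRCh37, which is not the annotation counted on, and it was joined through the symbol for 22494 genes and through an earlier symbol for 1358, with 2512 unmatched and 22008 given a length and GC content. The members are the genes named, with, from other lists, the called genes of largest change (up to 3 per list and comparison), and the 2 genes of highest Pearson's r per member. Alternatives were DESeq2 1.42.0, its size factors in edgeR, no count filter, a GC correction (lowess of log2 CPM on GC content, span 0.3), the clone as a block, both together, more conditions in 1 fit, genotypes compared with each mimic, and each library left out. Fits were tested on simulated data without a clone effect or a GC trend, so that test covers neither. For the difference of responses its pass mark was set after the result had been seen. The clone in the heading was taken to pair libraries because they come from the same cell line. Across genes, the difference between clones correlated between treated and control libraries by 0.56, 0.54 and 0.59 in Y537S, 0.24 and 0.25 in D538G and 0.24, 0.17 and 0.20 in WT cells. Sources say nothing of separate cultures within a clone, so p-values as designed measure the spread between 2 clones. With the clone as a block they measure how alike the change was in the 2 clones, with the spread in part taken from all genes. Small p-values of the block thus do not extend beyond these 2 clones. With 2 against 2 libraries an exact permutation test cannot go below p = 0.333 and was not used.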

Additional observations from a re-analysis of the deposited data

Results flagged for a closer look

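The response to the miR-331 mimic differed between Y537S and WT cells in 4 members by the edgeR test of the difference itself (quasi-likelihood F test, 8 libraries). The log2 difference was 0.548 for KRT8 (adjusted p = 0.0192), 0.61 for KRT18 (adjusted p = 0.0124), 0.565 for KRT7 (adjusted p = 0.0134) and -1.755 for KRT15 (adjusted p = 0.0127). The 2 clones of Y537S cells moved alike in each of them, by a log2 ratio of 0.75 and 0.78 for KRT8, 0.78 and 0.77 for KRT18, 0.87 and 0.88 for KRT7 and -1.56 and -1.68 for KRT15. In the WT clones the ratios were 0.23 and 0.15, 0.18 and 0.11, 0.29 and 0.29, and 0.45 and -0.19. Genes in the keratins' GC range differed between the genotypes by a median of 0.13 in the same test. With the GC correction the 3 positive differences were 0.464 for KRT8, 0.511 for KRT18 and 0.548 for KRT7, and they were called. The part of the GC trend in them was not tested otherwise.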

How the results depend on the processing

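As designed 29 member changes were called. All 29 kept direction and call with DESeq2 and with no count filter, and 27 with DESeq2's size factors in edgeR. With the clone as a replicate block 19 of 19 kept their call. With the GC correction 19 of 29 kept it, 7 lost it and 3 reversed. With 1 library left out, 88 of 132 values kept their call and 44 lost it, and none reversed. The added members and values of the block stand beside the results, and the block changed no other call.

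Counts of members called moved as follows. After miR-301b in Y537S cells (0 as designed) 1 was called with DESeq2 and with all conditions of the genotype in 1 fit, 3 with the replicate block (2 higher, 1 lower) and 4, all lower, with the block and GC correction (KRT8, KRT18, KRT19 and KRT15). After the let-7f inhibitor (0) it was 3 with the replicate block and 1 with the GC correction added. After miR-301b in D538G cells (1) it was 2 with DESeq2, with no filter and with the replicate block, 0 with the GC correction and with all conditions in 1 fit, and 3 with the block and GC correction (KRT7 and KRT80 higher, KRT19 lower). After miR-181c in D538G cells (1) it was 3 with no filter and with the replicate block, 0 with the GC correction and 2 with both (KRT80 higher, KRT19 lower). After miR-301b in WT cells (1) it was 0, 2 and 3 with the GC correction, the replicate block and both (KRT80 higher, KRT8 and KRT19 lower), after miR-331 (4) it was 0 with the GC correction and 1 with both (KRT80, lower), and after miR-181c (2) it was 1, 5 and 1. D538G against WT cells gave 3 (5 as designed) with all 24 libraries in 1 fit and with the miR-301b mimic, and Y537S against D538G cells gave 0 (1) with the miR-301b mimic. The cause was not tested.

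With single libraries left out the counts ran from 5 to 5 (miR-331 in Y537S), 0 to 2 (miR-301b and miR-181c in D538G, miR-301b in WT), 2 to 5 (miR-331 in WT), 1 to 3 (miR-181c in WT), 1 to 7 (Y537S against WT), 2 to 4 (D538G against WT), 0 to 1 (Y537S against D538G) and 0 to 4 (miR-331 response), and stayed at 0 elsewhere. Fits with 1 library in a group assume that it varies like the others, and the number called over all genes moved between them too.

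Among treatment changes called as designed or with the block, those that changed sign, with the GC correction and with the replicate block added, were -0.017 and -0.020 for KRT8 after miR-181c in D538G cells. In WT cells they were -0.054 and -0.055 for KRT7 after miR-301b, -0.081 and -0.080 for KRT19 after miR-181c, and -0.008 and -0.008 for KRT8, -0.016 and -0.016 for KRT18, and -0.025 and -0.026 for KRT7 after miR-331. Other values that had not been called also turned negative, and 4 of them were called as lower with the block and GC correction, namely after miR-301b KRT18 in Y537S (-0.15), KRT19 in D538G (-0.22) and KRT8 in WT cells (-0.15), and after miR-181c KRT19 in D538G cells (-0.16). Between Y537S and WT cells given the miR-331 mimic KRT19 was at 0.055, KRT7 at 0.047 and KRT80 at 0.036. The GC content of 94.5% to 95.6% of genes tested was known. KRT81 and KRT13 are limited by depth, with 0 to 115 counts a library.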
